A study of Mus musculus with 8 samples.

Results

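Acute phase proteins are secreted or membrane proteins whose production changes during inflammation, infection or tissue injury. The liver makes most of the circulating ones, under interleukin-6 and interleukin-1 family cytokines acting through STAT3, C/EBP and NF-κB factors, and glucocorticoids strengthen the response. Fibroblasts, adipocytes and other mesenchymal cells make a smaller local set, among them serum amyloid A3, lipocalin 2, haptoglobin and the antichymotrypsin-like serpins, which bind bacterial lipids, iron, haemoglobin or proteases at the site of damage.

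The genes described here are 10 genes listed together as acute phase protein genes, taken by symbol from the deposited gene table. They are *Lbp*, *Lcn2*, *Saa3*, *Serpina3m*, *Serpina3n*, *Serpina3g*, *Hp*, *Orm1*, *Cp* and *Steap4*. Not each of them meets the description above, since the *Serpina3g* product is found inside the cell. They are 10 of the 18605 genes in the table, and all 10 were among the 13470 genes with enough reads to be tested. They were chosen by their function with their levels in these same libraries already known, so the counts and fold changes below are a description of them, and they lend no independent support to any direction. The p-values come from a fit across all 13470 genes.

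C3H10T1/2, a mesenchymal line derived from C3H mouse embryos, was sequenced in 4 groups of 2 libraries. NC cells were the control and KD-Nap1l2 cells carried a lentiviral shRNA against *Nap1l2*, a histone chaperone gene of the nucleosome assembly protein family. Both were collected before induction. The study calls the control of its 7-day RNA-seq non-target, while its RNA-seq methods call the control cells normal. NC-7d and KD-Nap1l2-7d were the same kinds of cells after 7 days in osteogenic medium, which by the study's methods contained dexamethasone, a synthetic glucocorticoid, with ascorbic acid and β-glycerol phosphate. All 4 groups were therefore of 1 line, and the study's methods do not state that the uninduced controls had been transduced. Which shRNA sequence the knockdown libraries carried is not given in the sources used here. The labels do not say whether the 2 libraries of a group came from separate cultures, so p-values measure the spread between these libraries, which may be technical.

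Library totals ran from 17420284 to 19427359 counts. *Nap1l2* itself was barely detected: its normalized counts were 2.95 and 2.80 in the NC libraries, 1.96 and 7.28 in those labelled KD-Nap1l2, 16.1 and 4.79 in NC-7d and 7.02 and 13.6 in the libraries labelled KD-Nap1l2-7d. The groups overlapped, so a lower *Nap1l2* level was not detectable at this depth, and the libraries are named below by their labels. The study itself reports the knockdown in this line by western blot and qPCR. The 10 mesenchymal markers on the list summed to 6928 to 8230 FPKM (fragments scaled to transcript length and library size) in the NC libraries and 6046 to 7739 in KD-Nap1l2, and to 4815 to 5321 in NC-7d and 4093 to 5394 in KD-Nap1l2-7d. Of the 9 tested, 1 fell with induction in control cells and 3 in knockdown-labelled cells (edgeR, adjusted p under 0.05). Of all genes tested, 3.38% and 7.36% were called lower. The 7 hepatocyte markers in the table summed to 0.13 to 0.49 FPKM, and *Alb*, the albumin gene, had 0 or 1 count in each library. Macrophage markers summed to 13.0 to 22.9 FPKM and neutrophil markers to 1.06 to 8.80. *Ptprc*, which encodes the leukocyte antigen CD45, had 0 to 4 counts per library, but other markers of these lists were detected. Named here for their higher counts, *Cd14* had 134 to 424 per library, *Cd68* 56 to 196, *Lyz2* 14.7 to 103 and *Camp* 8 to 82. Adipocyte markers summed to 31.2 to 32.6 FPKM in NC and 41.8 to 57.9 in KD-Nap1l2, and to 179 to 212 in NC-7d and 175 to 228 in KD-Nap1l2-7d. Most of that sum was *Fabp4*, which measured 10.1 and 7.69 FPKM in NC and 165 and 139 in NC-7d and rose with induction by log2 4.09 in control and 3.12 in knockdown-labelled cells. *Pparg* rose too (1.09 and 0.91), while *Adipoq* (-1.45 and -1.01) did not pass, *Lpl* was at 0.13 in control cells and fell in knockdown-labelled cells (-1.54), and *Plin1*, *Cidec*, *Lep* and *Cfd* had too few reads to be tested. The part of these marker levels in the values below was not tested. In bulk RNA, fewer cells of a type and less RNA per cell cannot be told apart.

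The genes lie on 7 chromosomes of the mouse genome (build GRCm38.p6, RefSeq annotation). *Lbp* (chr2:158306493-158332852, plus strand) and *Lcn2* (chr2:32384637-32387739, minus strand) are on chromosome 2. *Serpina3g* (chr12:104236147-104241939), *Serpina3m* (chr12:104387157-104394259) and *Serpina3n* (chr12:104406646-104414334) lie in the serpin cluster of chromosome 12, all on the plus strand. *Saa3* is at chr7:46711998-46719615 and *Hp* at chr8:109575128-109579172, both on the minus strand, and *Orm1* (chr4:63344556-63348163), *Cp* (chr3:19956933-20009750) and *Steap4* (chr5:7960472-7982213) are on the plus strand.

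Promoter sequence of 3 of them is shown, chosen by their response or motif matches. *Saa3* had the largest fold change with induction. *Serpina3n* was called higher and has a glucocorticoid response element match, and *Steap4* did not rise. Whether such matches go with the changes was not tested. The RefSeq promoter table (GRCm38.p6) holds windows for 6 of the 10 genes, *Lcn2*, *Saa3*, *Serpina3n*, *Serpina3g*, *Cp* and *Steap4*. Each printed stretch begins 250 bases before the table's start site, reads 5′ to 3′ on the gene's strand, and ends before the first base of the gene in RefSeq or of its exons in GENCODE vM21. The *Saa3* window lies inside the longer span that RefSeq gives this gene. Capitals mark matches on either strand to C/EBP (TTNNGNAA), STAT (TTCNNNGAA), NF-κB or glucocorticoid response element motifs, which can overlap.
*Saa3*, chr7:46715701-46715926, minus strand: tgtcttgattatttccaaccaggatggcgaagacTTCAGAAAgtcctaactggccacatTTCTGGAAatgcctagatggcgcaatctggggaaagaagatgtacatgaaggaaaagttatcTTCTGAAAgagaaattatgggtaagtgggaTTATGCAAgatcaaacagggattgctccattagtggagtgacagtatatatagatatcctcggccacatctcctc
*Serpina3n*, chr12:104406458-104406645, plus strand: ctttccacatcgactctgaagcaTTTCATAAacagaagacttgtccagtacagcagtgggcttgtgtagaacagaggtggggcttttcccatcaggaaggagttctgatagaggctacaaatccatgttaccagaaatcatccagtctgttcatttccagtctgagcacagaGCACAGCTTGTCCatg
*Steap4*, chr5:7960222-7960456, plus strand: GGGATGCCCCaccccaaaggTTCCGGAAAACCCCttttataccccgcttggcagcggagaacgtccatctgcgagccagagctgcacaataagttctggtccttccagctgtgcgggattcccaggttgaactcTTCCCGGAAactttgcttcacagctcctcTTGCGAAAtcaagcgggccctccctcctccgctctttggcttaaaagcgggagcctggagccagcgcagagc

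The 226 bases of *Saa3* held 4 C/EBP matches, the last 99 to 92 bases before the start site, and no match to the other motifs. In *Serpina3n* the capitals mark 1 C/EBP match and, 78 to 66 bases before the start site, the glucocorticoid response element, the only one among the 6 genes with a window. The *Steap4* stretch held 2 C/EBP, 1 STAT and 2 NF-κB matches, 1 NF-κB match overlapping a C/EBP match. Over whole windows, the C/EBP motif was found in 6 of 6 genes, and 36.8% of the 32851 windows in the table hold it. STAT and NF-κB were each found in 2 of the 6, *Serpina3g* and *Steap4*, beside 7.02% and 7.25% of all windows, and the glucocorticoid response element in 0.387% of all windows. These are matches of letters, not sites shown to be bound.

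Before induction the 10 genes spanned more than 2 orders of magnitude in FPKM, the scale on which levels of different genes are compared. In NC, *Cp* (272 ± 17.4 FPKM, SD, n = 2), *Lcn2* (192 ± 20.7) and *Steap4* (106 ± 50.3) were the highest, in that order, with no overlap between neighbours. *Serpina3g* followed at 28.0 ± 4.54 FPKM. *Lbp* and *Serpina3n* overlapped at 17.1 ± 3.57 and 12.2 ± 4.51, and *Hp* lay below them at 6.36 ± 2.98. *Orm1*, *Serpina3m* and *Saa3* formed the lowest group, at 1.08 to 2.22 FPKM, with overlapping libraries.

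After induction the order was different. *Lcn2* was first in both induced groups, rank 28 among all genes in NC-7d and rank 8 in KD-Nap1l2-7d by mean FPKM, after rank 354 in NC and 699 in KD-Nap1l2. *Cp*, *Lbp* and *Hp* followed in that order in both, with neighbours apart. *Steap4* was at place 3 of the 10 in NC, 6 in NC-7d and 9 in KD-Nap1l2-7d. The 10 genes together took 0.186% and 0.161% of the counts in the NC libraries and 0.108% and 0.0754% in KD-Nap1l2, against 0.468% and 0.372% in NC-7d and 0.673% and 0.545% in KD-Nap1l2-7d. *Lcn2* alone accounted for 0.256% and 0.191% of the KD-Nap1l2-7d libraries, from 0.0108% and 0.00636% in KD-Nap1l2.

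**Figure D1:**
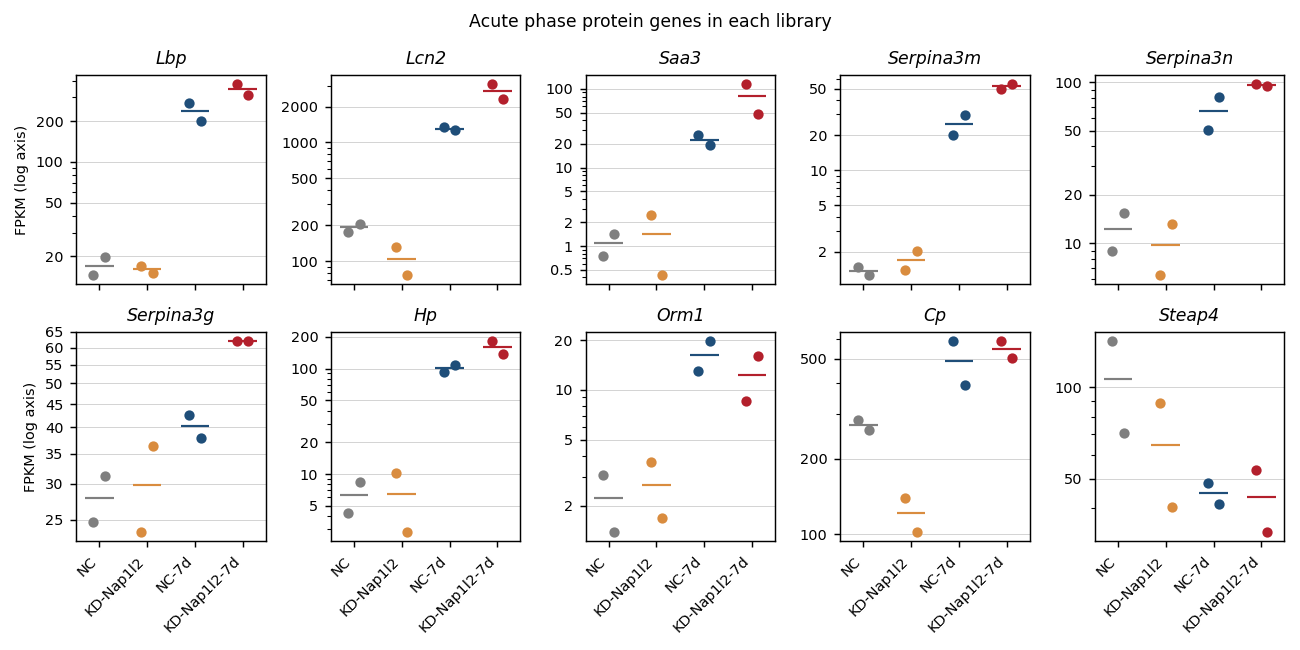
FPKM (log axis) of each acute phase gene in each of the 8 libraries, by group. Points are libraries and horizontal lines are group means (n = 2). For 9 of the 10 genes both induced groups lie above the uninduced group with the same label, and *Steap4* is the exception.

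**Figure D2:**
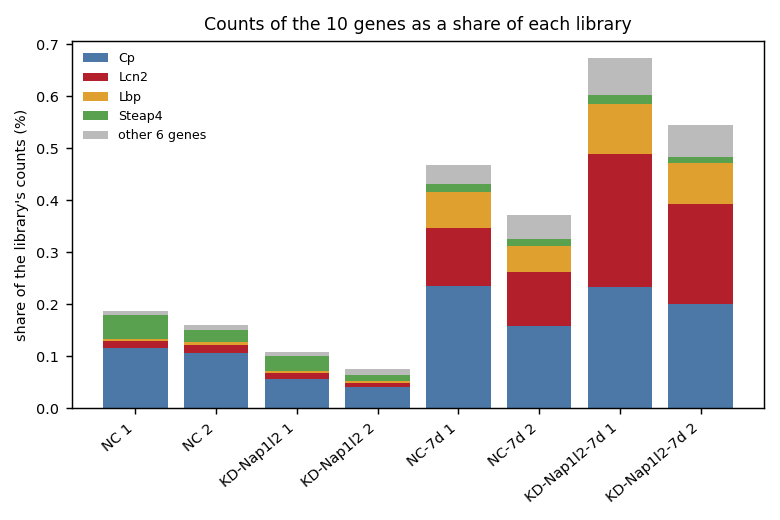
Estimated counts of the 10 genes as a percentage of all counts in each library, 1 stacked bar per library, coloured by gene. The bars run from 0.0754% (KD-Nap1l2 replicate 2) to 0.673% (KD-Nap1l2-7d replicate 1), and *Cp* and *Lcn2* make up most of each induced bar.

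The first question was how these genes changed over 7 days of osteogenic induction. In the control cells, 7 of the 10 rose (edgeR's quasi-likelihood test, Benjamini-Hochberg adjusted p under 0.05), where 4.83% of all genes tested were called higher, and 0 of the 10 fell. In the cells labelled KD-Nap1l2, 9 of the 10 rose, where 6.84% of all genes were called higher. The median log2 fold change over the 10 genes was 2.81 in the control cells and 3.85 in the knockdown-labelled cells, while over all genes tested it was 0.00 and -0.01. In both contrasts 9 of the 10 had induced libraries wholly above the uninduced ones, as did 29.4% and 30.8% of all genes. *Steap4* was the remaining gene.

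*Lbp*, the carrier that hands lipopolysaccharide to CD14, measured 14.6 and 19.6 FPKM in NC and 274 and 199 in NC-7d. It measured 17.1 and 14.97 FPKM in KD-Nap1l2 and 377 and 313 in KD-Nap1l2-7d. All 4 induced libraries stood far above all 4 uninduced ones, and the uninduced groups overlapped. The rise was 13.8-fold in control cells (log2 3.79 ± 0.24, SE, adjusted p = 0.000432, edgeR) and 21.6-fold in knockdown-labelled cells (log2 4.43 ± 0.25, adjusted p = 0.000172).

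*Lcn2*, the siderophore-binding protein that withholds iron from bacteria, measured 178 and 207 FPKM in NC and 1334 and 1259 in NC-7d. Its levels were 131 and 76.6 FPKM in KD-Nap1l2 and 3089.5 and 2303 in KD-Nap1l2-7d. It was the one gene of the 10 for which the 4 groups were wholly separate, in the order KD-Nap1l2, NC, NC-7d, KD-Nap1l2-7d. Induction raised it 6.73-fold in control cells (log2 2.75 ± 0.25, adjusted p = 0.00165, edgeR) and 26.4-fold in knockdown-labelled cells (log2 4.72 ± 0.27, adjusted p = 0.000199).

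*Saa3*, the serum amyloid A made outside the liver, was close to the floor before induction, at 7 and 14 counts (0.74 and 1.43 FPKM) in NC and 22 and 4 counts (2.46 and 0.43 FPKM) in KD-Nap1l2. It reached 26.0 and 19.3 FPKM in NC-7d and 115 and 48.3 in KD-Nap1l2-7d. Libraries of 1 group differed by up to 5.17-fold in normalized counts, so its fold changes carry the largest errors. They were 20.5-fold in control cells (log2 4.35 ± 0.67, adjusted p = 0.00975, edgeR) and 57.0-fold in knockdown-labelled cells (log2 5.83 ± 0.66, adjusted p = 0.00234). The first call was lost without NC replicate 1 (adjusted p = 0.111) or NC replicate 2 (0.0510). The second held without any 1 library, but its log2 value was 7.45 without KD-Nap1l2 replicate 1, 5.12 without replicate 2 and 5.09 without KD-Nap1l2-7d replicate 1.

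*Serpina3m*, a member of the mouse family that corresponds to human antichymotrypsin, measured 1.47 and 1.27 FPKM in NC and 20.1 and 29.5 in NC-7d. In KD-Nap1l2 it was at 1.39 and 2.05 FPKM and in KD-Nap1l2-7d at 50.02 and 54.6. Its induced and uninduced libraries did not overlap, with rises of 19.2-fold (log2 4.26 ± 0.28, adjusted p = 0.000434, edgeR) and 31.6-fold (log2 4.98 ± 0.28, adjusted p = 0.000172). *Serpina3n*, its neighbour and a secreted inhibitor of granzyme B and leukocyte proteases, went from 9.01 and 15.4 FPKM in NC to 50.7 and 81.2 in NC-7d, and from 6.37 and 13.2 in KD-Nap1l2 to 97.3 and 94.4 in KD-Nap1l2-7d. It rose 5.36-fold (log2 2.42 ± 0.41, adjusted p = 0.0130, edgeR) and 9.66-fold (log2 3.27 ± 0.42, adjusted p = 0.00378). Without NC replicate 1 the first of these had an adjusted p of 0.124, and without KD-Nap1l2 replicate 2 the log2 value of the second was 3.98.

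*Serpina3g*, which encodes an inhibitor of cathepsins found inside the cell, had the smallest change of the 3 serpins among the 10. Its levels were 24.8 and 31.2 FPKM in NC, 42.7 and 38.0 in NC-7d, 23.5 and 36.3 in KD-Nap1l2 and 62.0 and 62.0 in KD-Nap1l2-7d. In control cells the log2 fold change was 0.52 ± 0.24 and did not pass (adjusted p = 0.221, edgeR). It rose 2.06-fold in knockdown-labelled cells (log2 1.04 ± 0.24, adjusted p = 0.0270), a call lost without KD-Nap1l2-7d replicate 1 (0.135) or replicate 2 (0.138).

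Counts of the serpins are not fully separable from those of their relatives. Of the stretches of 50 bases in the longest coding transcript (GENCODE vM21), 19.1% in *Serpina3m*, 6.90% in *Serpina3n* and 16.0% in *Serpina3g* also occur in transcripts of other genes, and their estimated counts were not whole in 7, 8 and 8 of the 8 libraries. Among the 8 other genes of the cluster, 3 were tested. *Serpina3i* was called higher in both induction contrasts, with log2 fold changes of 1.15 and 0.995. *Serpina3f* rose in knockdown-labelled cells (1.34), and its value of -0.86 in control cells did not pass (edgeR). *Serpina3k*, which shares most with *Serpina3m*, had at most 7.67 counts in a library.

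*Hp*, which encodes haptoglobin, the haemoglobin scavenger of plasma, measured 4.26 and 8.47 FPKM in NC and 92.0 and 108 in NC-7d. Before induction the KD-Nap1l2 libraries were 3.30-fold apart in normalized counts, at 10.2 and 2.83 FPKM, and after it they were at 182 and 138. The rises were 15.6-fold (log2 3.97 ± 0.52, adjusted p = 0.00576, edgeR) and 25.1-fold (log2 4.65 ± 0.54, adjusted p = 0.00251). The first was lost without NC replicate 1 (0.0655), and the second had a log2 value of 5.76 without KD-Nap1l2 replicate 1 and 4.04 without replicate 2.

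*Orm1*, which encodes the plasma carrier α1-acid glycoprotein, was the lowest of the 10 after induction. It measured 3.05 and 1.39 FPKM in NC, 13.0 and 19.7 in NC-7d, 3.65 and 1.69 in KD-Nap1l2 and 8.58 and 16.1 in KD-Nap1l2-7d. The 4 induced libraries were above all uninduced ones, and both induced groups overlapped. It rose 7.32-fold in control cells (log2 2.87 ± 0.51, adjusted p = 0.0166, edgeR) and 4.71-fold in knockdown-labelled cells (log2 2.23 ± 0.50, adjusted p = 0.0264). Both calls depended on single libraries. The first was lost without NC replicate 1 (log2 3.57, adjusted p = 0.0655) or replicate 2 (0.0825). The second was lost without KD-Nap1l2 replicate 2 (0.102), KD-Nap1l2-7d replicate 1 (0.0643) or replicate 2 (0.162), while without KD-Nap1l2 replicate 1 its log2 value was 2.82. Its sequence shares 20.4% of its stretches of 50 bases with *Orm2* and *Orm3*, so that its reads could be split with theirs. *Orm3*, a relative, rose in both contrasts too, by log2 1.85 and 2.03. *Orm2*, in which all of these shared stretches occur, passed in neither (log2 0.86 and 0.32, adjusted p = 0.330 and 0.711, edgeR).

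*Cp* encodes ceruloplasmin, the copper-carrying ferroxidase that lets iron bind transferrin. Before induction it measured 285 and 260.1 FPKM in NC, above every other gene of the 10, and 140.0 and 102 in KD-Nap1l2, where its libraries overlapped with those of *Lcn2*. After induction it was at 587 and 394 FPKM in NC-7d and 587 and 503 in KD-Nap1l2-7d, with the induced groups overlapping. In knockdown-labelled cells it rose 4.44-fold (log2 2.15 ± 0.24, adjusted p = 0.00224, edgeR). In control cells its log2 fold change was 0.84 ± 0.23 with an adjusted p of 0.0671, and it passed with DESeq2 (adjusted p = 0.00336), in the unfiltered edgeR fit (0.0378), with the replicate number as a block (0.0415) and without NC-7d replicate 2 (edgeR, 0.0249). The table divides it among 5 transcripts, of which 1 held 56.3% of its counts and another 32.7%, and the leading one held 49.3% to 59.1% in every library.

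*Steap4* encodes a membrane metalloreductase that reduces iron and copper for uptake. It measured 142 and 70.8 FPKM in NC, 48.7 and 41.3 in NC-7d, 88.7 and 40.4 in KD-Nap1l2 and 53.5 and 33.5 in KD-Nap1l2-7d. The NC libraries lay above the NC-7d ones, and the knockdown-labelled groups overlapped. Its log2 fold change was -1.25 ± 0.42 in control cells (adjusted p = 0.119, edgeR, and 0.00677 with DESeq2) and -0.54 ± 0.42 in knockdown-labelled cells (adjusted p = 0.411). The control value was -0.65 without NC replicate 1. The uninduced libraries differed among themselves by 2.03-fold in NC and 2.01-fold in KD-Nap1l2.

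**Figure D3:**
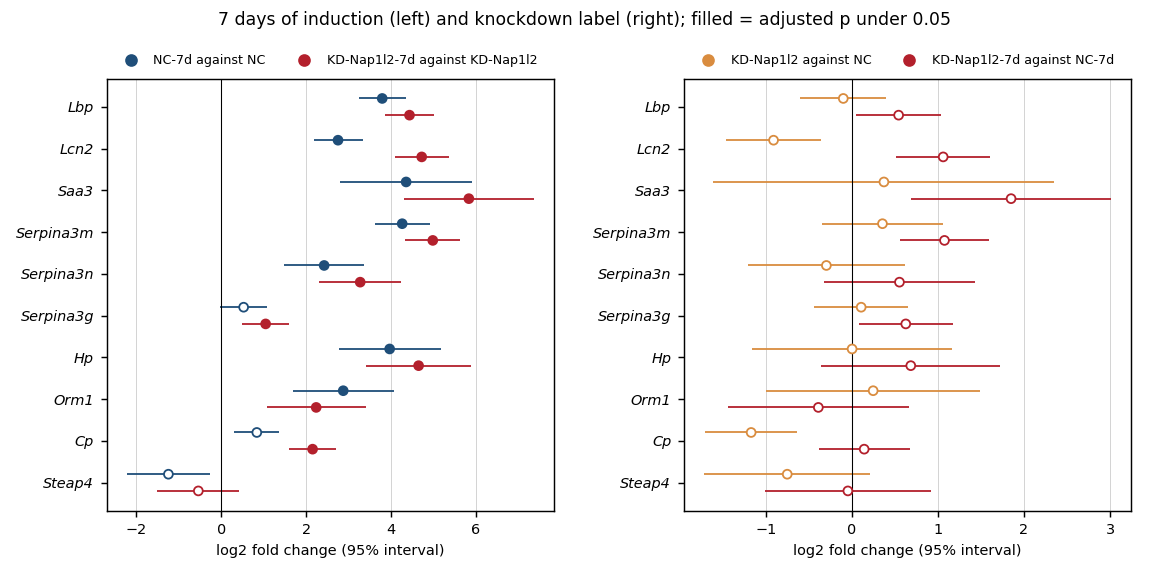
Log2 fold change of each acute phase gene with its 95% interval from the fit across all genes, for 7 days of induction in each label (left) and for the knockdown label at each time (right). Filled points have an adjusted p under 0.05: 7 and 9 of 10 on the left, and 0 and 0 on the right.

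The second question was whether the label KD-Nap1l2 went with other levels before induction. No gene of the 10 passed the test between KD-Nap1l2 and NC (edgeR), where 0.0817% of all genes were called, and 2 had an unadjusted p under 0.05, as did 13.7% of all genes. DESeq2 called 2 of the 10, *Lcn2* and *Cp*, both lower, where it called 3.44% of all genes in either direction, and limma on FPKM called 0. The median log2 fold change of the 10 genes was -0.05, beside 0.01 over all genes tested. In *Lcn2* and *Cp* both KD-Nap1l2 libraries were below both NC libraries, as in 21.2% of all genes, and in the other 8 the groups overlapped.

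For *Cp* the log2 fold change was -1.17 ± 0.23 (adjusted p = 0.104, edgeR, and 3.26e-05 with DESeq2), or 2.26-fold lower, and its adjusted p ranged up to 0.409 over the alternatives. For *Lcn2* it was -0.91 ± 0.24, or 1.88-fold lower (adjusted p = 0.167, edgeR, and 0.00472 with DESeq2), and edgeR gave 0.0365 without KD-Nap1l2 replicate 1. *Steap4* was at -0.75 ± 0.42 (adjusted p = 0.479), and that value was -0.15 with NC replicate 1 left out and -1.34 with KD-Nap1l2 replicate 1 left out. Omitting the other library of either group gave -1.18 (NC) and -0.34 (KD-Nap1l2). The remaining 7 genes lay between -0.30 and 0.37, and each of them changed sign when 1 library was left out. The 95% interval for *Saa3* ran from -1.61 to 2.35, that for *Hp* from -1.16 to 1.16 and that for *Orm1* from -1.001 to 1.49. Each of these takes in a change of 2-fold either way.

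The third question was whether the label went with other levels after 7 days of induction. Again 0 of the 10 genes passed (edgeR), as 0% of all genes did. At an unadjusted p under 0.05 there were 5 of the 10, *Lbp*, *Lcn2*, *Saa3*, *Serpina3m* and *Serpina3g*, where 7.85% of all genes had such a p. DESeq2 called 2 of them, *Lcn2* and *Serpina3m*, where it called 0.577% of all genes, and limma on FPKM called 0. In 7 of the 10, *Hp* and *Serpina3n* with those 5, both KD-Nap1l2-7d libraries were above both NC-7d libraries, as in 21.0% of all genes. *Orm1*, *Cp* and *Steap4* overlapped between the groups. The median log2 fold change of the 10 genes was 0.59, with a range from -0.39 to 1.85, beside -0.01 over all genes tested.

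*Serpina3m* had 20.1 and 29.5 FPKM in NC-7d against 50.02 and 54.6 in KD-Nap1l2-7d, 2.11-fold higher (log2 1.07 ± 0.23, adjusted p = 0.443, edgeR, and 0.00915 with DESeq2). *Lcn2* was 2.08-fold higher (log2 1.06 ± 0.24, adjusted p = 0.443, edgeR, and 0.00325 with DESeq2). For *Saa3* the value was larger and less certain, 3.603-fold (log2 1.85 ± 0.50, adjusted p = 0.495, edgeR, and 0.555 with DESeq2), and it was 1.10 without KD-Nap1l2-7d replicate 1. *Hp*, *Serpina3g*, *Serpina3n* and *Lbp* lay between 0.54 and 0.68. *Cp* was at 0.14 ± 0.23 with a 95% interval from -0.39 to 0.67, and *Steap4* at -0.05 ± 0.42 with an interval from -1.01 to 0.91.

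The last question was whether the knockdown contrast at 7 days differed from that before induction. The difference itself passed for 0 of the 10 genes (edgeR, 0% of all genes called), with 2 at an unadjusted p under 0.05, *Lcn2* and *Cp*, beside 7.04% of all genes. DESeq2 called these 2, where it called 0.759% of all genes, and limma on FPKM called 0. It was positive in 9 of the 10 genes, all but *Orm1*, with a median of 0.71 beside -0.02 over all genes tested. For *Lcn2* it was 1.97 ± 0.33 on the log2 scale (adjusted p = 0.343, edgeR, and 5.15e-06 with DESeq2), from both knockdown-labelled libraries lying below the controls before induction and both above them after it. For *Cp* it was 1.31 ± 0.33 (adjusted p = 0.454, edgeR, and 0.00774 with DESeq2), from a lower level before induction and an overlapping one after it.

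**Figure D4:**
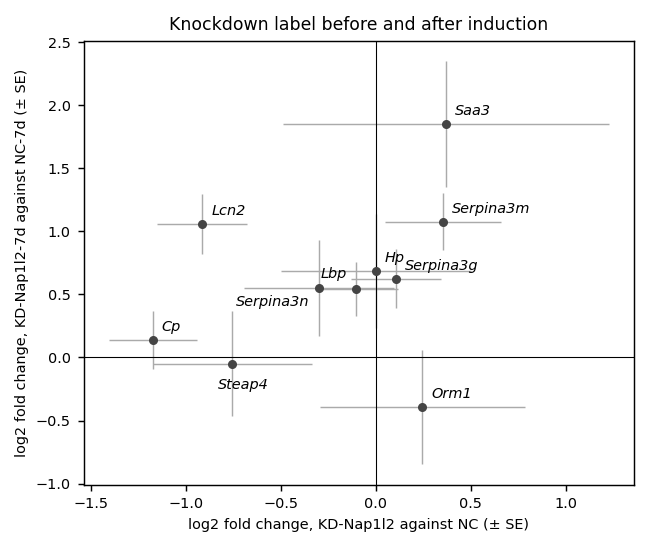
Log2 fold change between the labels after 7 days of induction (vertical) against that before induction (horizontal) for the 10 genes, with SE bars. *Lcn2* is at -0.91 and 1.06, *Cp* at -1.17 and 0.14, and *Saa3* has the widest bars.

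Of a list of 36 other acute phase genes, 31 were in the table and 16 had enough reads to be tested. With induction 4 of the 16 were called in control cells, where 8.21% of all genes tested were called in either direction, and 5 in knockdown-labelled cells, where 14.2% were. The same shares of all genes stand beside the counts of the lists that follow. *Crp*, *Fga*, *Fgg*, *Saa1* and *Saa2*, named here for their low values, never exceeded 5.02 counts in a library. Among the 16, 3 rose with induction in control cells, *Lrg1* (log2 3.10), *Il1rn* (1.85) and *Orm3* (1.85), and *Ptx3*, the pentraxin made by stromal cells, fell (-1.52). In knockdown-labelled cells *Lrg1* (2.86), *Cfb* (2.18), *Orm3* (2.03) and *C3* (1.09) rose and *Ptx3* fell (-1.87). The median over the 16 was 0.42 and 0.77. Of the negative acute phase genes, 2 were tested: *Trf*, which encodes transferrin, fell by 3.82 and 3.09 on the log2 scale, and *Fetub* rose by 2.91 and 3.01. Between the labels 0 of the 16 passed at either time (edgeR). At an unadjusted p under 0.05 (edgeR) there were 5 before induction and 2 after it, where 13.7% and 7.85% of all genes had such a p. DESeq2 called 2 before induction, *Cfb* and *C4b*, both lower, and 0 after it, where it called 3.44% and 0.577% of all genes.

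Cytokines and receptors that drive the response, and factors downstream of them, were listed separately. Of 17 tested inducers and receptors, 2 rose and 2 fell in control cells (8.21% of all genes called), and 5 rose and 4 fell in knockdown-labelled cells (14.2%). *Il6ra*, the interleukin-6 receptor, rose by log2 1.83 and 1.87, and *Tlr2*, the receptor for bacterial lipoproteins, fell by 1.29 and 0.74. *Il6*, *Il1b* and *Tnf* were named after their values were seen. *Il6*, the cytokine that drives hepatic acute phase genes, had 43 and 29 counts in NC, 48 and 42 in KD-Nap1l2, 29 and 15 in NC-7d and 78 and 75 in KD-Nap1l2-7d. Between the labels at 7 days its log2 fold change was 1.79 ± 0.40 (adjusted p = 0.452, edgeR), with the groups apart, and its part in the values of the 10 genes was not tested. *Il1b* had 0 to 4 counts per library and *Tnf* 0 to 1. Of 15 transcription factors and inhibitors tested, 2 rose and 2 fell in each contrast. *Cebpb*, a C/EBP factor of the acute phase, rose by 1.36 and 1.77 (adjusted p = 0.00202 and 0.000591, edgeR). The C/EBP genes did not move together. *Cebpa* fell in knockdown-labelled cells (-2.40, adjusted p = 0.0117, edgeR) and was at -0.93 in control cells (0.204). *Cebpd* was at 0.83 and 0.74 and did not pass (0.0601 and 0.0609, edgeR). *Nr3c1*, the glucocorticoid receptor, fell by 1.12 and 1.15. *Stat3* rose by 0.61 in control cells, and was at 0.30 (adjusted p = 0.140) in knockdown-labelled cells.

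Most of the listed genes known to answer glucocorticoids rose over the same 7 days. Of 11 tested, 7 rose in control cells and 8 in knockdown-labelled cells (edgeR), where 4.83% and 6.84% of all genes were called higher. Of the 11, 0 fell, and the median log2 fold change was 2.62 and 2.81. Named here because they did not pass in control cells, *Per1* (1.11), *Klf9* (0.88), *Dusp1* (1.95) and *Ddit4* (0.93) had positive values. In knockdown-labelled cells *Klf9* passed and the others did not. *Fkbp5*, an immunophilin induced through the glucocorticoid receptor, rose by 5.0 and 5.33 on the log2 scale, *Sult1a1* by 3.53 and 4.52, *Zbtb16* by 3.35 and 4.18 and *Tsc22d3* by 3.22 and 3.40. Their summed level was 152 to 206 FPKM in the uninduced libraries and 996 to 1162 in the induced ones. Between the labels, *Sult1a1* was the 1 gene of these lists that passed, lower in KD-Nap1l2 before induction (log2 -1.498, adjusted p = 0.0187, edgeR). The medium held dexamethasone in both induced groups and in neither uninduced group, so dexamethasone, the other additives and 7 days in culture cannot be told apart here.

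Partners of the 10 proteins were given for comparison. Of 19 tested, 3 rose and 2 fell in control cells and 6 rose and 2 fell in knockdown-labelled cells. *Fth1*, the ferritin heavy chain that stores iron, rose by 0.80 and 1.37, and *Steap1*, a relative of *Steap4*, rose by 2.49 and 1.52. *Slc22a17*, described as a receptor for lipocalin 2, fell by 2.37 and 1.83, and *Mmp9*, the gelatinase that lipocalin 2 binds, fell by 4.05 and 5.17 from 0.97 to 1.84 FPKM before induction.

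Likeness of pattern was measured as the root mean square difference of centred log2 normalized counts over the 8 libraries, against 11270 other genes whose normalized counts averaged 50 or more. *Dpep1*, a dipeptidase gene, was nearest to *Lbp* (0.21) and among the 2 nearest to *Lcn2* (0.52), *Hp* (0.52) and *Serpina3m* (0.65). The nearest to *Lcn2* was *Cdo1* (0.45), to *Saa3* *Ifi209* (0.65), to *Serpina3m* *Slc10a6* (0.53) and to *Serpina3n* *Pdk4* (0.32). *Orm1* was nearest to its relative *Orm3* (0.37). For *Cp* the nearest were *Pmepa1* and *Ifi211* (0.26 each), for *Serpina3g* *Crebl2* (0.12) and for *Steap4* *Dgki* (0.26). *Lbp* and *Lcn2* were 0.43 apart, and 0 genes outside the 10 were nearer to *Lcn2* than *Lbp* was, while 2 were nearer to *Lbp* than *Lcn2* was. For *Saa3*, *Hp* and *Serpina3m* 0 outside genes were nearer than the closest member. *Steap4* was the least like the rest, with 10659 genes nearer to it than its closest member, *Serpina3g*. The number nearer was 8347 for *Serpina3g*, 795 for *Cp*, 146 for *Orm1* and 50 for *Serpina3n*.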

How the data were processed

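RNA-seq of C3H10T1/2 cells was analysed in 4 groups of 2 libraries, assigned by their labels. The authors deposited an estimated count (expected count) per gene and transcript for each library, not normalized, and FPKM values, which scale counts to transcript length and library. That the second column is FPKM is read from its values and the estimated counts. The submitters' processing notes name BWA, Bowtie2, RSEM and the build GRCm38.p6, without versions. The deposited comparison columns (fold changes, p-values and q-values of the authors) were not used.

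Estimated counts were rounded, 41.1% of genes holding a count that was not whole. Counts were normalized by TMM, filtered with filterByExpr and fitted over all 8 libraries with edgeR 4.0.16 (R 4.3.3). The quasi-likelihood test was used, with Benjamini-Hochberg adjusted p under 0.05 over 13470 genes. The SE was taken as |log2 fold change|/√F. Library totals were 17420284 to 19427359, and a count of 0 allows up to 3 counts, and such limits cover counting error only. Fold changes use edgeR's prior count. The members and lists were chosen with earlier results of these data known. Named genes are the 10 members, *Nap1l2*, up to 4 called genes per list and contrast, and the 2 genes most like each member. Others are said to be named for their values.

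DESeq2 1.42.0, RLE scaling, an unfiltered fit, a fit of only the libraries compared, replicate number as a blocking term, limma 3.58.1 on log2(FPKM + 1) and log2(FPKM + 0.1), and leaving out each library were the alternatives. On simulated data for KD-Nap1l2 against NC (13470 genes, 100 changed 2-fold and 100 changed 4-fold), edgeR found 53 and 94 with 15 false calls, and DESeq2 65 and 95 with 41. Figures were drawn with matplotlib 3.10.9.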

Additional observations from a re-analysis of the deposited data

Results flagged for a closer look

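*Lcn2* is given here because its knockdown-labelled libraries lay on opposite sides of the controls at the 2 times. Both KD-Nap1l2 libraries were below both NC libraries before induction (log2 -0.91 ± 0.24), and both KD-Nap1l2-7d libraries were above both NC-7d libraries after it (1.06 ± 0.24). The difference was 1.97 ± 0.33. Its test gave an adjusted p of 0.343 with edgeR and 5.15e-06 with DESeq2, and over all alternatives from 5.15e-06 to 0.99995. DESeq2 passed the threshold and edgeR did not.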

How the results depend on the processing

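Between KD-Nap1l2 and NC, 11 genes were called by edgeR, against 453 with DESeq2, 160 without the filter, 33 and 18 with limma on log2(FPKM + 1) and log2(FPKM + 0.1), 0 with only the libraries compared, and 0 to 562 when 1 library was left out (562 without KD-Nap1l2 replicate 1). Of the 10 acute phase genes, DESeq2 called 2 there and the unfiltered fit 1 (*Cp*), and leaving out a library gave 0 to 1. At 7 days DESeq2 called 78 genes and 2 of the 10, and leaving out a library gave 0 to 1 genes and 0 of the 10. For the difference, DESeq2 called 100 genes and 2 of the 10, the unfiltered fit 1 gene, and leaving out a library gave 0 to 19 genes. The induction calls numbered 122 to 926 genes and 3 to 8 of the 10 in control cells with a library left out (122 and 3 without NC replicate 1), and 305 to 2200 genes and 7 to 9 of the 10 in knockdown-labelled cells. A lone library in a group is assumed to vary like the other groups.

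*Hp* between KD-Nap1l2 and NC (0.00) turned negative under 8 settings: -0.0058 with DESeq2, -0.0023 with RLE, -0.0061 unfiltered, -0.011 with only the libraries compared, -0.068 with the replicate block, -0.11 and -0.15 with limma on log2(FPKM + 1) and log2(FPKM + 0.1), and -0.15 with the crossed block. Leaving out a library gave ranges across 0 for *Hp* (-1.11 to 0.61), *Saa3* (-1.25 to 1.09), *Serpina3g* (-0.32 to 0.44), *Lbp* (-0.29 to 0.12), *Serpina3n* (-1.005 to 0.18), *Orm1* (-0.34 to 0.94) and *Serpina3m* (-0.047 to 0.68), at 7 days for *Steap4* (-0.41 to 0.24) and *Cp* (-0.14 to 0.50), and for *Steap4* in the induction of knockdown-labelled cells (-0.96 to 0.047). The cause was not tested.

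Over all 13470 genes tested, replicate numbers gave little sign of pairing: deviations from the group means correlated at -0.108, 0.136, -0.028 and 0.026 in the 4 contrasts. That does not settle it for single genes. In *Steap4* and *Cp* replicate 1 lay above replicate 2 in every group, while in the other acute phase genes the order varied between groups. With the replicate block 4 genes were called between KD-Nap1l2 and NC, and 9 of the 10 acute phase genes in control induction, *Cp* (adjusted p = 0.0415) and *Steap4* (0.0246) in addition. A crossed pairing fitted to only the 4 libraries compared, chosen after seeing the data, called 157 genes and 0 of the 10. It changes the pairing and the libraries fitted together, and the fit of those 4 libraries without a block called 0 genes. Low counts of *Saa3* and *Orm1* before induction limit their precision.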
